A study of Vitis vinifera with 6 samples.

Results

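The terpene synthase block of grapevine was taken as the run of gene models VIT_18s0001g04000 to VIT_18s0001g05500 of chromosome 18. It was defined by identifiers, with earlier results of these data known. This gave 127 of the 34369 features on the array, each with 1 probe. The array measured RNA of young leaves of Vitis vinifera cv. Thompson Seedless, from plantlets grown in vitro. OX.NAC61 leaves (3 arrays) came from plants vacuum-infiltrated with Agrobacterium tumefaciens strain C58C1 that carried 35S:NAC61, in which the constitutive 35S promoter drives the NAC transcription factor NAC61 from a pK7WG2 vector. Control leaves (3 arrays) came from plants infiltrated with the same strain carrying that vector with a non-coding insert, so both groups had been through agroinfiltration. The labels give the plants as 6 weeks old. The study's methods give 5 weeks at infiltration, so the labels' age is that of plants sampled 7 days later. Of these plants 7 were infiltrated for OX.NAC61 and 5 for the control, and leaves were taken 7 days later. The expression was transient, and the study kept the 3 plants with the highest NAC61 transcript for its OX.NAC61 arrays, so the level of NAC61 is partly a result of that choice.

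Terpene synthases turn prenyl diphosphates into the hydrocarbon skeletons of terpenes. Sesquiterpene synthases use farnesyl diphosphate, mainly a product of the cytosolic mevalonate pathway, while monoterpene and diterpene synthases use precursors from the plastid MEP pathway. In grapevine the family is large and lies in tandem arrays of close copies, and its products include flower and berry volatiles and compounds released from attacked leaves.

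All signals below are log2 intensities from which the array's own 75th percentile was subtracted, so that 0 stands for that percentile and each step of 1 is a doubling. The 75th percentile was 1772, 2569 and 2186 intensity units on the OX.NAC61 arrays and 1613, 1328 and 889 on the control arrays, and 26557 to 28121 features were well above background on the OX.NAC61 arrays against 24501 to 26884 on the control arrays. OX.NAC61 replicates 2 and 3 were scanned on a later day than the other 4 arrays. NAC61 itself had −1.15, −0.66 and −0.47 in OX.NAC61 leaves and −2.48, −2.21 and −2.44 in control leaves, a log2 fold change of 1.62 (SE 0.21, limma adjusted p = 0.0285). All 9 leaf marker genes, which encode photosystem, light-harvesting and Rubisco-related proteins, were well above background on all 6 arrays. Of the 9, 8 were called lower in OX.NAC61 leaves, beside 3.72% of all tested features. The study already reports lower photosynthesis-related genes in these same data, so this count adds no independent information. In whole leaves, fewer cells of a type and less RNA per cell cannot be told apart.

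The block was not uniform. Its probes fell into a pair of runs in the array's design, with probe numbers 12848 to 12902 for 55 loci (the lower run) and 13309 to 13380 for 72 loci (the upper run), although their locus numbers alternate. This split was noticed after the values had been seen. All 9 loci that the study's annotation names as terpene synthases were in the lower run, and the other annotated locus of that run encodes actin-related protein 3. The upper run holds 21 annotated loci, none of them named as a terpene synthase. Among these, VIT_18s0001g04640 and VIT_18s0001g04660 are recorded as no hit, and VIT_18s0001g04130 and VIT_18s0001g05370 as unknown, so the annotation does not identify them. Of the whole block, 96 loci carry no annotation in the tables used here and are given by identifier, so that the label of a terpene synthase block was borne out for 9 loci only.

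Many loci of the lower run gave little signal in these leaves. In control leaves, 77 of the 127 loci were well above background on all 3 arrays, 13 of 55 in the lower run and 64 of 72 in the upper run, and those 77 loci were also well above background on all 3 OX.NAC61 arrays. In the lower run, 26 to 30 loci were well above background on each OX.NAC61 array and 14 to 22 on each control array. The corresponding numbers in the upper run were 66 to 68 on the OX.NAC61 arrays and 65 to 67 on the control arrays. No array showed 20 loci of the lower run and 3 of the upper run, together 18.1% of the block, against 15.3% of all features on the array. The lower run alone was at 36.4% and the upper run at 4.17%. The control arrays were also the dimmer ones: the lowest scaled signal that counted as well above background was −7.69, −7.95 and −7.47 on the OX.NAC61 arrays and −7.29, −6.62 and −6.22 on the control arrays, and its part in these counts was not tested.

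**Figure D1:**
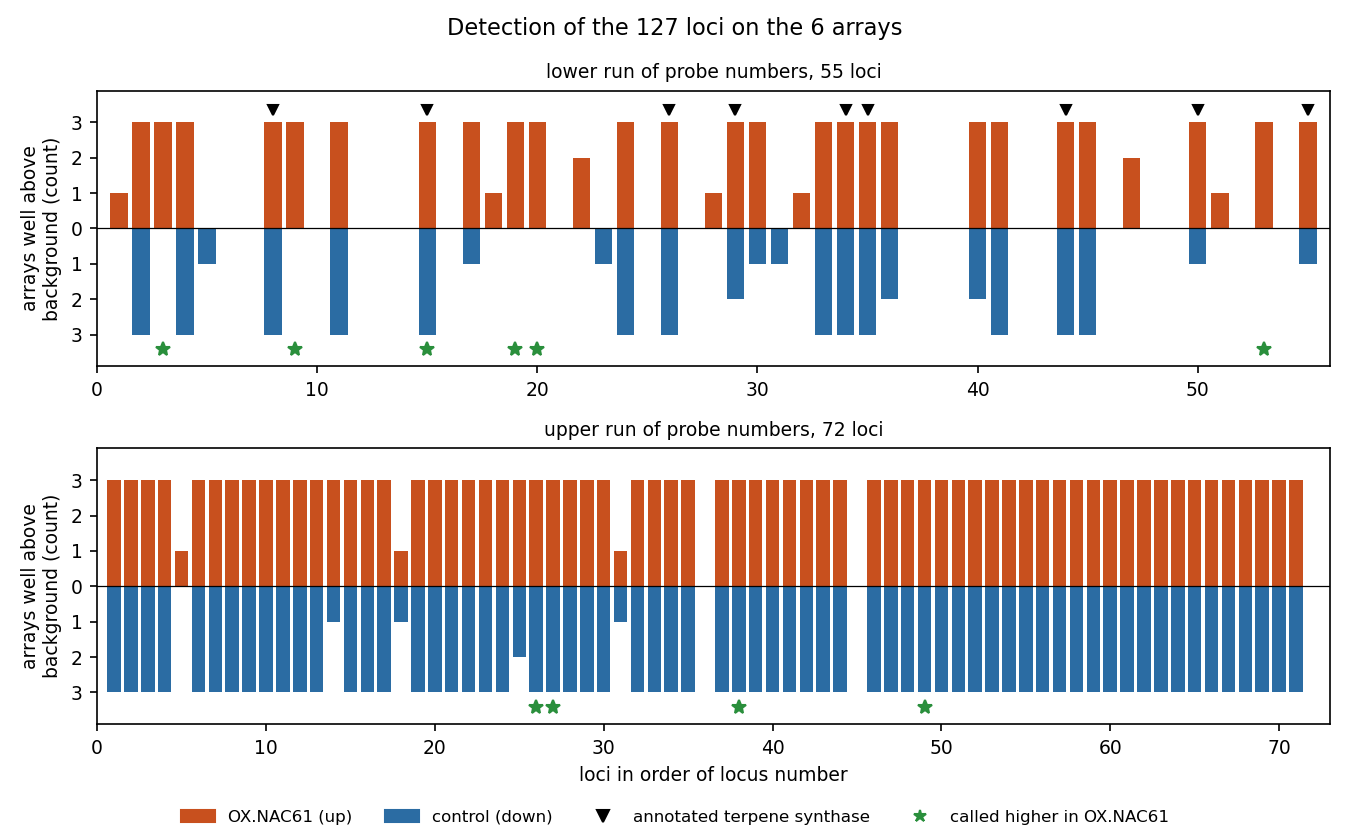
Number of arrays on which each locus was well above background (vertical axis, OX.NAC61 arrays upward and control arrays downward), for the 55 loci of the lower probe run and the 72 loci of the upper run in order of locus number. Triangles mark the 9 annotated terpene synthases and stars the 10 loci called higher in OX.NAC61 leaves. The upper run is filled at nearly every locus, and the lower run has 20 loci with no array in either direction.

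The comparison of OX.NAC61 with control leaves was fitted with limma over the 27052 features that were well above background on at least 3 arrays, and a locus counted as called where its fold exceeded 1.5 and its p, adjusted by Benjamini-Hochberg, was under 0.1. Of the 127 loci, 91 entered the test. Among them 10 were called, all of them higher in OX.NAC61 leaves, which is 11% of those tested. Over all tested features 6.81% were called, 3.09% higher and 3.72% lower. None of the 91 loci was called lower by limma, and 5 of them had a negative fold change with an unadjusted p under 0.05. Of the 10 calls, 5 were loci that every OX.NAC61 array and no control array measured well above background. Such a locus could enter the test only through the OX.NAC61 arrays. Without loci that were dark on every control array, 5 of 86 were called, all higher, or 5.81%. The shares over all tested features were not filtered in this way, so no like share stands beside it. The median log2 fold change of the 91 loci was 0.04, of the lower run −0.12 and of the upper run 0.07, beside −0.05 over all tested features, so the typical locus stood near 0. Calls were lost across the whole array when any single array other than OX.NAC61 replicate 1 was left out. Without OX.NAC61 replicate 1, limma called 3225 of all features and 13 of the 91 loci. Without control replicate 2, limma called 71 of all features and 0 of the 91 loci (14 had an unadjusted p under 0.05). Without control replicate 3 it called 220 features and 0 of the 91 (17 had an unadjusted p under 0.05), and without OX.NAC61 replicate 3 it called 328 features and 1 of the 91. With scan day as a block the contrast rests on OX.NAC61 replicate 1 alone against the 3 control arrays. That fit called 13 features in all, so its count of 0 in the block (15 had an unadjusted p under 0.05) says little about these loci, and the 10 loci had log2 fold changes of 0.77 to 3.27 in it.

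**Figure D2:**
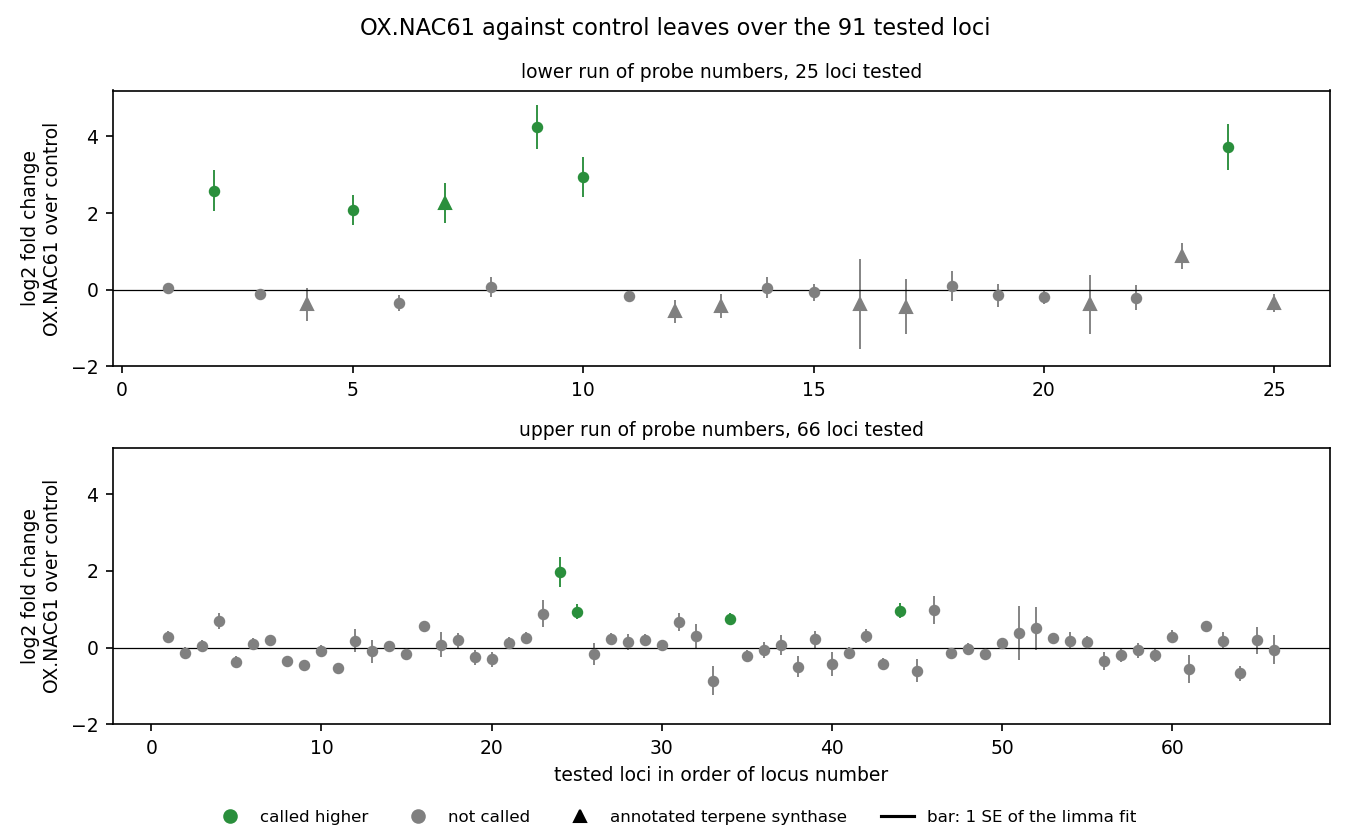
Log2 fold change of OX.NAC61 over control leaves (vertical axis, bars 1 SE of the limma fit) for the 25 tested loci of the lower probe run and the 66 of the upper run, in order of locus number. Green points are the 10 loci called higher, triangles the annotated terpene synthases. The 6 called loci of the lower run lie at 2.08 to 4.25, and most other points lie close to 0. For 5 of these 6, no control array was well above background, so their points rest on control values below that limit. The approximate lower bounds of those 5 were 1.12-fold to 5.63-fold.

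TPS07 (VIT_18s0001g04280), annotated as a (−)-germacrene D synthase, was the 1 annotated terpene synthase of the block that was called. Germacrene D is a sesquiterpene made from farnesyl diphosphate. TPS07 had −3.95, −2.31 and −3.68 in OX.NAC61 leaves and −6.37, −5.17 and −5.18 in control leaves, and was well above background on all 6 arrays. The groups did not overlap, and OX.NAC61 replicate 2 was the highest array. The log2 fold change was 2.26 (SE 0.52, limma adjusted p = 0.0821), or 4.79-fold. On the deposited normalised values the log2 fold change was 0.70 with an adjusted p of 0.173, and with scan day as a block it was 1.62 with an adjusted p of 0.499. The call was also lost when any array other than OX.NAC61 replicate 1 was left out, at log2 fold changes of 1.76 to 2.46.

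The other 5 called loci of the lower run are not annotated here, and all control arrays left them not well above background. Only an approximate lower bound of the fold can therefore be given. The bound sets the mean of the OX.NAC61 arrays against the lowest signal that counted as well above background on each control array. Some brighter spots did not count as such. On control replicate 2, VIT_18s0001g05470 had −6.34 and was not well above background, beside a limit of −6.62. The bounds are therefore not strict. The adjusted p beside each bound rests on control values below that limit, at loci that entered the fit through the OX.NAC61 arrays, and adds no support to the bound. VIT_18s0001g04490 had −5.20, −2.92 and −4.54 in OX.NAC61 leaves, against measured but not well above background values of −8.15, −8.88 and −8.38 in control leaves. It was at least 5.63-fold higher in OX.NAC61 leaves (limma adjusted p = 0.0300), and at least 3.59-fold without OX.NAC61 replicate 2.

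VIT_18s0001g05450 had −6.15, −3.88 and −5.57 in OX.NAC61 leaves, against −9.47, −8.84 and −8.45 in control leaves. It was at least 2.85-fold higher (limma adjusted p = 0.0395), and at least 1.81-fold without OX.NAC61 replicate 2. VIT_18s0001g04510 had −6.82, −4.90 and −6.01 in OX.NAC61 leaves, against −9.44, −8.77 and −8.35 in control leaves. Its bound was at least 1.74-fold (limma adjusted p = 0.0475).

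VIT_18s0001g04050 had −6.97, −5.13 and −6.45 in OX.NAC61 leaves, against −9.45, −8.68 and −8.19 in control leaves, and a bound of at least 1.44-fold (limma adjusted p = 0.0642). VIT_18s0001g04170 had −7.11, −5.68 and −6.86 in OX.NAC61 leaves, against −8.81, −8.68 and −8.42 in control leaves, and a bound of at least 1.12-fold (limma adjusted p = 0.0506). For these dim loci the difference that the arrays could resolve was therefore small. Without OX.NAC61 replicate 2 the bound of VIT_18s0001g04050 was 1.002-fold, and that of VIT_18s0001g04170 was not above 1, nor was it without control replicate 1.

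TPS07 and these 5 loci followed one order in OX.NAC61 leaves, with replicate 2 highest, replicate 3 next and replicate 1 lowest in 6 of 6 loci. The arrays' own brightness had the same order, with a 75th percentile of 2569, 2186 and 1772 on replicates 2, 3 and 1, and replicates 2 and 3 were scanned on the later day. The part of brightness and scan day in this order was not tested. Over the 6 arrays, the Pearson correlation of the 15 pairs of loci ran between 0.918 and 0.997. The 6 loci were picked by their call in these same data, which by itself raises a correlation over both groups. The loci share the arrays, the group difference and, below background, the limit of the scanner, and the correlation is given as a description of 6 arrays. Tandem copies of a terpene synthase can be near identical, and whether these probes read transcripts of one another was not tested.

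**Figure D3:**
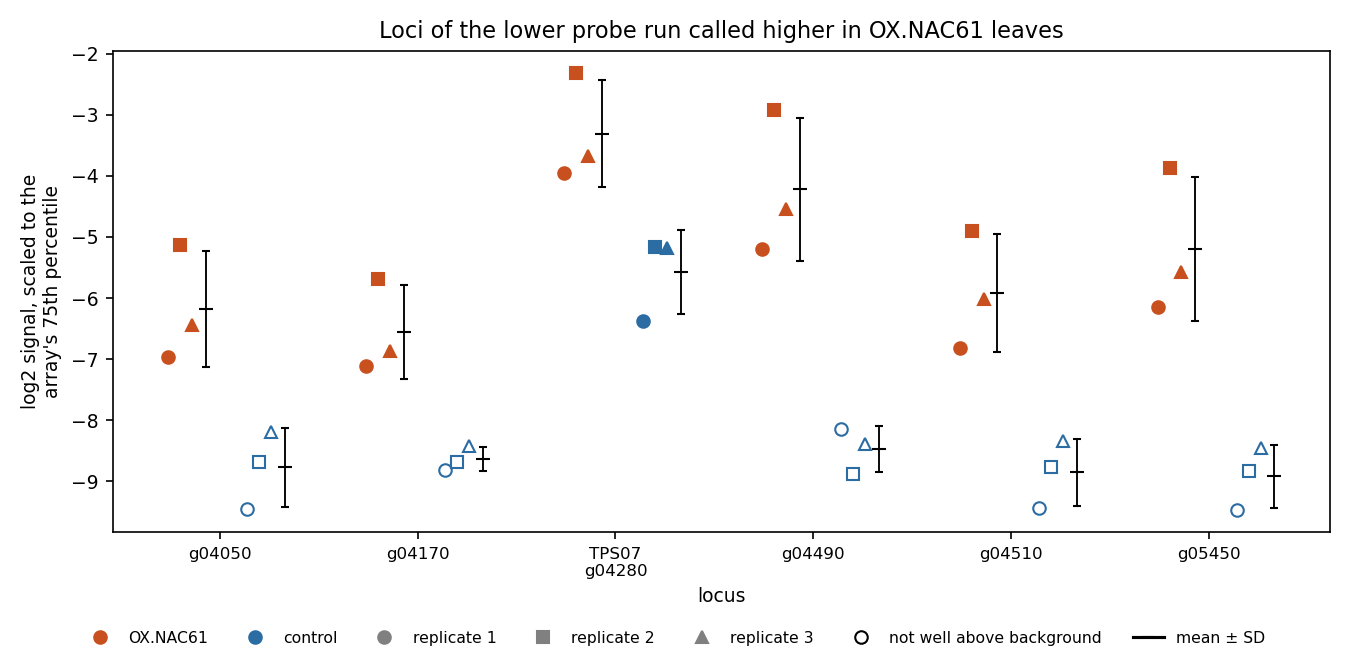
Scaled log2 signal (vertical axis) of the 6 loci of the lower probe run called higher, on the 3 OX.NAC61 arrays (orange) and the 3 control arrays (blue), with mean and SD beside each group and marker shapes for replicates. Open markers are not well above background. In all 6 loci OX.NAC61 replicate 2 is the highest array, and the control arrays of every locus but TPS07 are open.

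The other 8 annotated terpene synthases were not called. Their log2 fold changes ran from −0.56 to 0.88, and 7 of them were negative. Over all 9 the median was −0.37, beside −0.05 over all tested features. The sign of that median turned with scan day as a block, to 0.26. The annotations come from gene lists of the study, so these 9 loci are not a random draw from the family.

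TPS12 (VIT_18s0001g04990), annotated as a germacrene D and sesquithujene synthase, varied more between plants than between groups. It had −2.11, −5.05 and −5.84 in OX.NAC61 leaves and −2.19, −4.31 and −5.41 in control leaves, and its log2 fold change was −0.37 with an SE of 1.17 (limma adjusted p = 0.898). TPS14 (VIT_18s0001g05240), annotated as a germacrene D and alpha-zingiberene synthase, had −3.45, −5.62 and −6.17 in OX.NAC61 leaves and −3.76, −5.12 and −5.20 in control leaves (log2 fold change −0.38, SE 0.76). In both loci replicate 1 was the highest array of each group, and the pair correlated at 0.968 over the 6 arrays. TPS12 and TPS07 correlated at −0.43, and both values are descriptions of 6 arrays.

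VIT_18s0001g05000, annotated as a germacrene D synthase, had one high control plant: it had −4.36, −5.69 and −4.47 in OX.NAC61 leaves and −5.33, −2.84 and −5.03 in control leaves (log2 fold change −0.44, SE 0.72). TPS04 (VIT_18s0001g04120), also a germacrene D synthase by annotation, averaged −5.37 ± 0.56 in OX.NAC61 leaves and −5.001 ± 0.71 in control leaves (SD, n = 3 each). The groups overlapped at both loci. VIT_18s0001g04690, annotated as a delta-cadinene synthase, an enzyme type known from sesquiterpene phytoalexin synthesis in cotton, averaged −5.46 ± 0.52 in OX.NAC61 leaves and −4.89 ± 0.30 in control leaves (SD, n = 3 each), with a log2 fold change of −0.56 (SE 0.30, limma adjusted p = 0.351). It had the lowest log2 fold change of the 9, and its groups overlapped.

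The last 3 loci were partly dark in control leaves. TPS10 (VIT_18s0001g04780), a germacrene D and alpha-bergamotene synthase by annotation, passed the background limit on 3 OX.NAC61 and 2 control arrays, with a log2 fold change of −0.41 (SE 0.31). TPS18 (VIT_18s0001g05470) passed it on 3 OX.NAC61 arrays and 1 control array, with a log2 fold change of −0.34 (SE 0.24). VIT_18s0001g05390, annotated as a partial gene or pseudogene, likewise passed it on 3 OX.NAC61 arrays and 1 control array. Apart from TPS07 it had the only positive log2 fold change among the 9, at 0.88 (SE 0.34, limma adjusted p = 0.219), with −5.81, −5.67 and −6.07 in OX.NAC61 leaves and −7.37, −6.81 and −6.02 in control leaves, where replicate 3 reached the OX.NAC61 range.

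**Figure D4:**
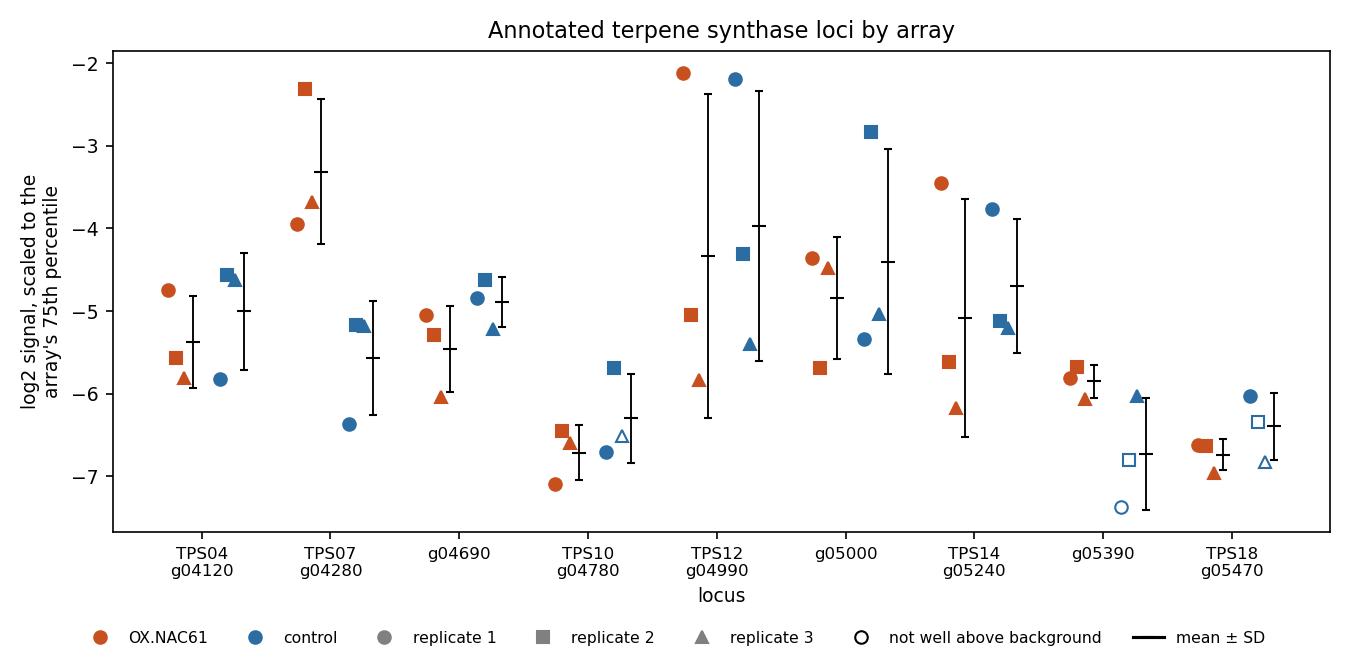
Scaled log2 signal (vertical axis) of the 9 annotated terpene synthase loci on the 3 OX.NAC61 arrays (orange) and the 3 control arrays (blue), with mean and SD beside each group. Marker shapes give the replicate and open markers are not well above background. TPS07 is the 1 locus whose groups do not overlap, and replicate 1 stands above the others in both groups at TPS12 and TPS14.

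In the upper run 4 of 66 tested loci, or 6.06%, were called higher, and these were well above background on all 6 arrays. VIT_18s0001g04640, for which the annotation records no hit, had −0.38, −1.49 and −0.63 in OX.NAC61 leaves and −2.20, −3.22 and −3.001 in control leaves, and the groups did not overlap. Its log2 fold change was 1.97 (SE 0.38, limma adjusted p = 0.0560). VIT_18s0001g04660, also without a hit and 2 steps further in the numbering, had 0.90, 1.02 and 1.27 in OX.NAC61 leaves and 0.30, 0.24 and −0.17 in control leaves (log2 fold change 0.94, SE 0.19, limma adjusted p = 0.0611).

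VIT_18s0001g05030, annotated as a glucan 1,3-beta-glucosidase precursor, a type of enzyme that cleaves beta-glucans, had 1.82, 1.27 and 1.54 in OX.NAC61 leaves and 0.70, 0.33 and 0.70 in control leaves. Its log2 fold change was 0.97 (SE 0.20, limma adjusted p = 0.0634). VIT_18s0001g04860, annotated as an aspartate transaminase and PA2, had 0.52, 0.12 and 0.27 in OX.NAC61 leaves and −0.42, −0.39 and −0.51 in control leaves (log2 fold change 0.74, SE 0.15, limma adjusted p = 0.0642). The 4 loci kept their call on the deposited values and under both normexp background corrections, at log2 fold changes of 0.67 to 1.63. Of the 4 calls, 0 were left at an adjusted p under 0.05, 0 with scan day, 1 with recorded slide and 2 with replicate number as a block. With arrays left out, 0 were left without OX.NAC61 replicate 3, control replicate 2 or control replicate 3, 1 without control replicate 1, 2 without OX.NAC61 replicate 2 and 4 without OX.NAC61 replicate 1.

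A further 2 loci of the upper run, named after their values were seen, passed the adjusted p but not the fold. VIT_18s0001g04470 had a log2 fold change of 0.57 (limma adjusted p = 0.0869) and VIT_18s0001g05400 of 0.56 (limma adjusted p = 0.0825). Of all 91 loci, the groups did not overlap at 18 that were higher in OX.NAC61 leaves (19.8%, beside 9.9% of all tested features) and at 7 that were lower (7.69%, beside 16.3%). Without the 5 loci dark on every control array, 13 of 86 were higher (15.1%), while the 9.9% over all features was not filtered in this way. All 7 of the lower ones were in the upper run.

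Among uncalled loci with groups that did not overlap, the 3 highest were VIT_18s0001g05060 at a log2 fold change of 0.98 (limma adjusted p = 0.193), VIT_18s0001g04130 at 0.70 (0.145) and VIT_18s0001g04790 at 0.67 (0.172). VIT_18s0001g05060 is annotated as a phosphoglycerate mutase, an enzyme of glycolysis, and VIT_18s0001g04130 as an unknown protein. The 3 lowest were VIT_18s0001g05440 at −0.67 (limma adjusted p = 0.126), VIT_18s0001g04340 at −0.54 (0.104) and VIT_18s0001g04270 at −0.46 (0.149), none of them annotated here. VIT_18s0001g04340 had 1.05, 0.92 and 0.96 in OX.NAC61 leaves and 1.34, 1.60 and 1.62 in control leaves.

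The regulators that the annotation places in the block, named here after their values were seen, were not called. DREB27 (VIT_18s0001g05250), of a family that binds drought-response elements, averaged 3.65 ± 0.35 in OX.NAC61 leaves and 3.47 ± 0.23 in control leaves (SD, n = 3 each; limma adjusted p = 0.708). The auxin response factor ARF17 (VIT_18s0001g04180) averaged −3.26 ± 0.10 in OX.NAC61 leaves and −3.46 ± 0.06 in control leaves (SD, n = 3 each; limma adjusted p = 0.453). The bZIP factor annotated as bZIP43 and ABF2 (VIT_18s0001g04500) was well above background on 1 array of each group and was not tested. Levels of different probes are not set against each other, since brightness also depends on the probe.

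The genes that feed terpene synthases were read from a list that was chosen with earlier results of these data known. Of 11 genes of the MEP pathway, 2 were called lower in OX.NAC61 leaves (18.2%, beside 3.72% of all tested features). None was called higher by limma, and none with a positive fold change had an unadjusted p under 0.05. The median log2 fold change was −0.36. The study's gene lists include genes that it called in these same data, so a place on this list can depend on the call. The 18.2% and 3.72% are therefore not a like comparison. A gene for DXS (VIT_09s0002g02050), the entry enzyme of that pathway, had −4.49, −4.90 and −4.42 in OX.NAC61 leaves and −3.46, −3.95 and −3.61 in control leaves. Its log2 fold change was −0.93 (SE 0.20, limma adjusted p = 0.0738), and −0.23 with an adjusted p of 0.168 on the deposited values. Its call was also lost under both normexp corrections, without a filter, with scan day or recorded slide as a block, and without any array other than OX.NAC61 replicate 1.

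The gene for DXR (VIT_17s0000g08390), the next enzyme, had 3.31, 3.38 and 3.37 in OX.NAC61 leaves and 3.92, 4.19 and 3.88 in control leaves (log2 fold change −0.64, SE 0.14, limma adjusted p = 0.0742). The groups did not overlap at either gene, and with quantile normalization the DXR gene fell below the fold limit, at −0.52, and lost its call. That call was also lost without a filter, with scan day, recorded slide or replicate number as a block, and without any array other than OX.NAC61 replicate 1. Of the other 5 DXS genes on the list none was called, at −0.80 to −0.12. In the cytosolic mevalonate pathway, limma called 0 of 4 genes (1 had an unadjusted p under 0.05), with the 3 HMG-CoA reductase genes at log2 fold changes of 0.06, −0.49 and −0.02. Mevalonate diphosphate decarboxylase (VIT_13s0106g00790) was at 0.48 (SE 0.17, limma adjusted p = 0.194).

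Of 12 terpene synthases annotated outside the block, 8 were tested and limma called 0 (2 had an unadjusted p under 0.05), with a median log2 fold change of −0.26. The 2 lowest, named after their values were seen, were a TPS27 gene (VIT_19s0014g04920) at −2.27 (SE 0.78, limma adjusted p = 0.177) and a partial germacrene D synthase (VIT_19s0015g02080) at −1.83 (SE 0.70, limma adjusted p = 0.212). Their groups overlapped. TPS27 had −6.85, −5.66 and −7.33 in OX.NAC61 leaves and −6.02, −3.54 and −3.46 in control leaves.

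**Figure D5:**
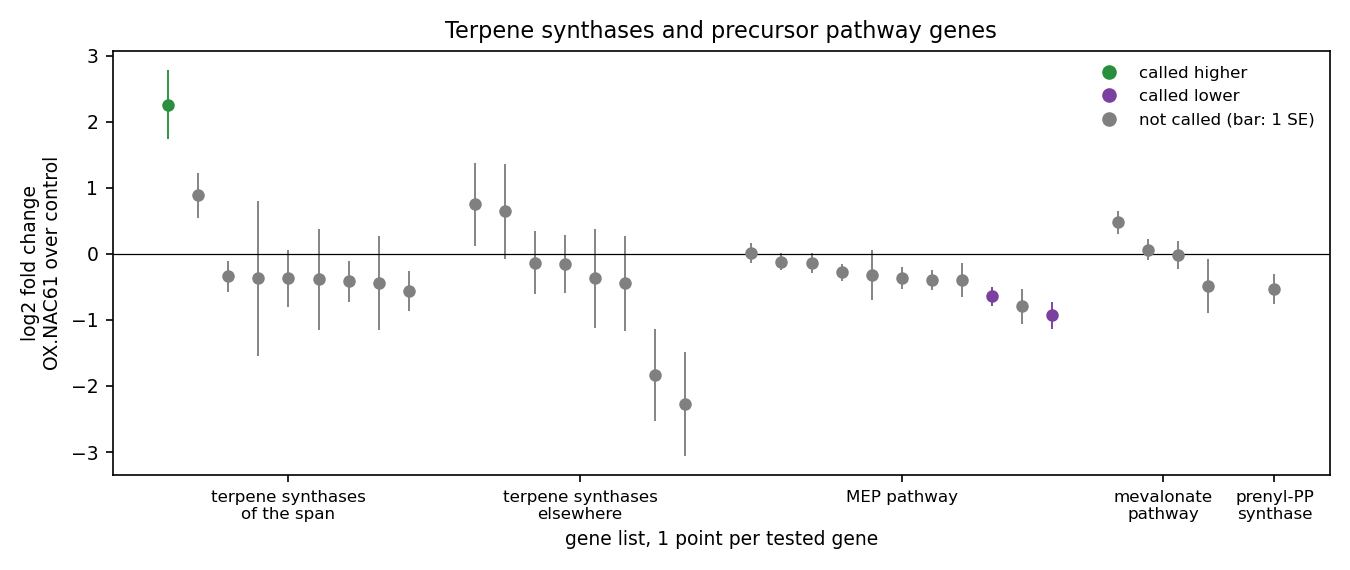
Log2 fold change of OX.NAC61 over control leaves (vertical axis, bars 1 SE of the limma fit) for the 9 terpene synthases of the block, 8 tested terpene synthases elsewhere, 11 MEP pathway genes, 4 mevalonate pathway genes and 1 geranyl diphosphate synthase subunit. TPS07 is the 1 gene called higher, at 2.26, and DXS and DXR are the genes called lower, at −0.93 and −0.64.

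Of the other 1328 loci with the same VIT_18s0001g prefix, 1151 were tested and 51 were called higher (4.43%) and 53 lower, with a median log2 fold change of −0.01. Of these loci 8.21% were dark on all 6 arrays, against 18.1% of the block. No probe or gene sequence was in the files used here, so none is printed.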

How the data were processed

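RNA of 3 OX.NAC61 and 3 control leaf samples was hybridised by the authors to 1-colour Agilent arrays and read with Feature Extraction 10.5.1.1. The deposited scanner files hold background-subtracted intensity values, which were not normalised between arrays. The deposited series table holds the authors' normalised log2 values for 26157 probes and served as an alternative. Here log2 of the processed signal was scaled to each array's 75th percentile, outlier spots were left out (81 features had such a spot, none of them in the block), and features well above background on at least 3 of 6 arrays were kept. Of 27053 kept, 1 could not be fitted. limma 3.58.1 (lmFit and eBayes, R 4.3.3) was run on all 6 arrays without covariates, with Benjamini-Hochberg adjustment over all tested features. A call needed an adjusted p under 0.1 and a fold over 1.5. The fit was tested on simulated data. No spot of the block was saturated.

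Named loci were the annotated terpene synthases, the called loci, loci well above background on at least 2 arrays of one group and none of the other, the 3 highest and 3 lowest uncalled loci with groups that did not overlap, called pathway genes and NAC61. Members and lists were chosen with earlier results of these data known. Annotations came from the study's supplementary tables, since none of the VIT_ identifiers was in the reference table used here. The replicates are different plants, and 3 arrays a group limit the precision. Alternatives were other background corrections, normalisations, filters and thresholds, the deposited values, scan day, recorded slide or replicate number as a block, other variance models, and each array left out in turn.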

Additional observations from a re-analysis of the deposited data

Results flagged for a closer look

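In the lower probe run, 2 loci that did not enter the test passed the background limit on 2 OX.NAC61 arrays each and on none of the control arrays, a signal outside the fitted comparison. VIT_18s0001g04550 had −7.49, −7.45 and −6.53 in OX.NAC61 leaves and −7.96, −8.65 and −7.55 in control leaves, so that its groups did not overlap by a narrow margin. VIT_18s0001g05290 had −6.43, −7.70 and −7.87 in OX.NAC61 leaves and −9.04, −7.46 and −6.87 in control leaves, and its groups overlapped. Neither locus had a lower bound above 1. A further 6 loci passed the limit on 1 OX.NAC61 array and no control array, and 3 loci on control replicate 1 and no OX.NAC61 array. Groups of 3 arrays are too small for the test of single outlying arrays.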

How the results depend on the processing

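The number of called loci in the block (10, all higher) moved with several settings. With normexp, offset 50 and quantile normalisation 6 loci were called higher and 1 lower; on the deposited values, which hold 86 loci of the block, 4 were called, all higher. With only features above background on all 6 arrays 5 were called, all higher, with scan day as a block 0, with recorded slide as a block 2, and at an adjusted p under 0.05 there were 3, all higher. The last 3 settings called 13, 589 and 657 of all features, against 1843, so calls were lost array-wide. The same recorded slide position stands on OX.NAC61 replicates 1 and 3, scanned on different days, so that block may be wrong for one of them. OX.NAC61 replicate 2 and control replicate 2 also share a recorded slide and were scanned on different days. The same holds for OX.NAC61 replicate 3 and control replicate 3. Without a filter 2 loci were called lower, and with an intensity trend 1. The 2 loci called without a filter had not entered the main test, so each was well above background on fewer than 3 of the 6 arrays. Leaving out each array in turn gave 0 to 13 called loci, 0 to 11 of them higher and 0 to 2 lower. Of the 6 calls in the lower run, 2 were left with normexp and offset 50 (log2 fold changes 0.28 to 1.12) and 1 with recorded slide. Quantile normalization alone left all 6. On the deposited values only TPS07 of the 6 was tested, and it was not called. With arrays left out, 0 were left without control replicate 2 or 3, 1 without OX.NAC61 replicate 3 and 2 without control replicate 1. There were 4 without OX.NAC61 replicate 2 and 6 without OX.NAC61 replicate 1.

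TPS07 lost its call on the deposited values (log2 fold change 0.70), with scan day (1.62) or recorded slide (2.00) as a block, and, at an unchanged 2.26, without a filter and at an adjusted p under 0.05. Leaving out each array in turn gave 1.76 to 2.58. NAC61 lost its call at 1.23 with scan day and 1.60 with recorded slide as a block (limma adjusted p = 0.198 and 0.104) and without control replicate 2 or 3. Over the arrays left out it was at 1.48 to 1.81. Some uncalled terpene synthases changed sign. With scan day as a block TPS04 was at 0.26, TPS12 at 1.85, VIT_18s0001g05000 at 0.045 and TPS14 at 1.25, and with recorded slide as a block TPS12 was at 0.50 and TPS14 at 0.013. With arrays left out, TPS12 ranged from −1.48 to 0.52, VIT_18s0001g05000 from −0.91 to 0.34 and TPS14 from −1.20 to 0.16. The cause of these changes was not tested.

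With replicate number as a block 9 loci were called, among them 8 of the 10 and all 6 of the lower run, and TPS07 stayed at 2.26. Across tested features, the deviations from the group means of arrays with one number had correlations of 0.21, −0.04 and 0.21, and 2 of 6 arrays matched their own number best, so the numbers were not taken to pair the plants. A limit of 2.6 SD over local background gave 97 loci on at least 3 arrays, against 91.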
